A study of Mus musculus with 2 samples.

Results

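Regulatory T cells (Tregs) were examined among CD45+ cells of mouse liver metastases. A cell counted as a Treg when it held a UMI (unique molecular identifier, which counts 1 captured RNA molecule) of a CD3 chain (Cd3d, Cd3e or Cd3g) and none of Cd8a or Cd8b1. It also had to hold a Foxp3 UMI, or a UMI of each of Ikzf2, Il2ra and Ctla4, and none of Csf1r (macrophages) or Cd79a (B cells). This rule found 63 Tregs among 9814 filtered Ctrl cells and 104 among 10185 filtered KD cells, which is 167 Tregs of 19999 cells. Lesions came from C57BL/6 mice aged 6 to 8 weeks, taken 2 weeks after MC38-LM3b cells, a liver-metastatic derivative of the MC38 colorectal cancer line, were injected into the spleen. The injected cells carried a scrambled hairpin (shScramble, Ctrl) or a hairpin against SLAMF3 (shSLAMF3#2, KD), while the mice themselves carried no engineered allele that the labels name. Each group was 1 droplet-based 3' library from the pooled lesions of 3 mice, so a difference between groups cannot be told apart from one between libraries, and no test between KD and Ctrl was possible. Intervals on such differences are 95% intervals for counting error only.

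Tregs are CD4+ T cells that restrain other immune cells and depend on the transcription factor FOXP3. They take up interleukin-2 through CD25 (Il2ra), strip costimulatory ligands from antigen-presenting cells through CTLA-4, release IL-10 and activate latent TGF-β. In tumors they are often of the effector type, with high levels of receptors such as 4-1BB (Tnfrsf9), CCR8 and KLRG1.

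The hairpin sequences are shown because they define the groups, and because the target, Ly9 (SLAMF3), is a gene that T cells also transcribe. Capitals are not used, since no part of either hairpin carries more weight here.
shRNA-SLAMF3#2: caccctaatctgcactgtaaa
shRNA-Scramble: caacaagatgaagagcaccaa
Over its 21 bases, the first sequence matched the coding sequence of Ly9 in exon 3 of transcript Ly9-202 (GRCm38 chr1:171601975-171601995, minus strand), and the second matched no annotated mouse transcript. The hairpin was in the tumor cells and not in the Tregs, so Ly9 in Tregs does not measure the knockdown. Ctrl Tregs held 12 Ly9 UMIs and KD Tregs 15, or 23.7 and 21.8 CPM (the UMIs of a gene per 1000000 UMIs of that cell class in that library). On the log2 scale KD differed from Ctrl by -0.12 (-1.31 to 1.11), so a difference of up to about 2-fold either way was not detectable at this depth.

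The cells that met the rule were described by how they entered it, and then compared with markers of other cells. In Ctrl, 15 Tregs entered through Foxp3 alone, 20 through Foxp3 together with the 3 other genes and 28 through those 3 genes without Foxp3. In KD these were 30, 31 and 43. Thus a Foxp3 UMI was seen in 55.6% of Ctrl and 58.7% of KD Tregs, shares that follow from the rule and check nothing. Of the cells that should lack it, 1 of 139 Ctrl B cells and 1 of 2438 KD macrophages held one. Just inside the rule were 20 Ctrl and 36 KD Tregs with exactly 1 Foxp3 UMI. Just outside it were 168 Ctrl and 240 KD cells with 2 of the other 3 genes. The CPM of the 4 genes describe how Tregs were chosen and carry no test. Foxp3 was at 105 CPM in Ctrl and 132 in KD Tregs, Il2ra at 377 and 262, Ikzf2 at 1802 and 2337, and Ctla4 at 1477 and 1727.

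The cells with a Foxp3 UMI and those without one differed in genes the rule did not use. Areg, a growth factor made by tissue Tregs, was at 380 (Ctrl) and 305 CPM (KD) with Foxp3, against 42.9 and 89.9 without. Klrg1, an inhibitory receptor of effector Tregs, was at 138 and 151 CPM with Foxp3, against 28.6 and 68.2 without. Both genes were therefore carried mostly by the cells with Foxp3 in each library.
Some genes of natural killer (NK) and innate-like T cells lay on the other side. Xcl1, a chemokine of NK and CD8+ T cells, had 43 and 196 UMIs in the cells without Foxp3, against 2 and 1 in those with it. Of the KD Xcl1 UMIs, 144 lay in 1 cell. Klrd1 (CD94), an NK receptor chain, had 59 and 24 UMIs, against 3 and 10. Zbtb16 (PLZF), the transcription factor of NKT and other innate-like T cells, had 4 and 37, against 1 and 0. Trdc, the constant segment of the γδ receptor, and Il17a were each found in 1 Treg per library, all without Foxp3. Klrk1 and Klrc1, also NK receptor genes, had 26 and 17 UMIs and 22 and 12 UMIs without Foxp3, against 1 and 8 and 0 and 1 with it. Some others, such as Ccl5 and Prf1, were not divided this way in both libraries. Ccl5 was at 454 (Ctrl) and 1359 CPM (KD) with Foxp3, against 791 and 948 without. Prf1 was at 23.6 and 54.9 CPM with Foxp3, against 66.7 and 43.4 without. The cells chosen by Ikzf2, Il2ra and Ctla4 without Foxp3 thus held some with transcripts of other lymphocytes.

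Of the markers of other cells, Cd79a, Ms4a1, Cd22, Pax5, Csf1r, Vcan, Flt3, Siglech, Alb, Apoa1, Lyve1, Clec4g, Dcn and the hemoglobin genes were at 0 UMIs in Tregs of both libraries; Cd79a and Csf1r were so by the rule. Other members of the same lists were present: Ighm of B cells had 87 and 118 UMIs, Pecam1 of endothelium 34 and 40, and Trf of hepatocytes 6 and 32. The tumor or fibroblast genes summed to 10 and 80 UMIs (log2 ratio of CPM 2.56, 1.61 to 3.68), of which 34 UMIs of Krt18 and 22 of Krt8 lay in 1 KD cell each, and the hepatocyte genes summed to 10 and 32. Granulocyte transcripts differed more. The 11 granulocyte genes summed to 29.6 CPM in Ctrl and 1374 CPM in KD Tregs, and they were likewise higher in KD in conventional CD4+ T cells (245 and 3593 CPM) and CD8+ T cells (212 and 2420 CPM). A UMI of S100a8, an abundant neutrophil transcript, was found in 0 of 63 Ctrl Tregs (upper 95% limit 5.69%) and in 32.7% of KD Tregs, beside 7.58% and 31.9% of conventional CD4+ T cells. Of the 4 granulocyte genes with at least 50 UMIs in Tregs, 4 were past 2-fold higher in KD, and of 7 macrophage genes 3 were. The 15 macrophage genes summed to 739 and 1149 CPM, of which Lyz2 had 31 and 148 UMIs. The part of these transcripts in the results below was not tested. Tregs held a median of 7246 UMIs in Ctrl (1608 to 24339) and 4887.5 in KD (899 to 20889), so the groups overlapped but Ctrl Tregs were the deeper. No Treg barcode occurred in both libraries.

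Tregs took a larger share of T cells in KD than in Ctrl. Of CD3+ cells, 1.48% (1.14 to 1.89) were Tregs in Ctrl and 3.74% (3.07 to 4.51) in KD, a difference of 2.26 percentage points (1.47 to 3.10). Of all filtered cells, the shares were 0.642% (0.494 to 0.821) and 1.02% (0.835 to 1.24). Of CD3+ cells without CD8 UMIs, they were 4.52% (3.49 to 5.74) and 6.81% (5.59 to 8.19), a difference of 2.29 points (0.567 to 4.01). CD8+ T cells numbered 2652 in Ctrl and 1108 in KD. Tregs made up 2.32% of Tregs and CD8+ T cells together in Ctrl and 8.58% in KD, a difference of 6.26 points (4.62 to 8.06).
Conventional CD4+ T cells (a CD3 and a Cd4 UMI, no CD8 or Foxp3 UMI, outside the Treg rule) numbered 132 in Ctrl and 367 in KD. The Treg rule, in contrast, did not require a Cd4 UMI. In Ctrl, 7 of 15 Tregs with Foxp3 alone, 12 of 20 with Foxp3 and the 3 other genes and 11 of 28 without Foxp3 held one. In KD these were 17 of 30, 21 of 31 and 22 of 43. What this unlike rule does to the values against conventional CD4+ T cells was not tested. Of Tregs and conventional CD4+ T cells together, Tregs were 32.3% (25.8 to 39.4) in Ctrl and 22.1% (18.4 to 26.1) in KD. This was lower by 10.2 points (95% limits of KD minus Ctrl -18.2 to -2.58). The size of this last difference was not stable, though it was below 0 under every alternative. It was -6.71 points (-14.4 to 0.250) with a Foxp3 UMI required and -2.84 points (-13.3 to 6.62) after thinning each cell to 1500 UMIs, and both intervals include 0. It was -9.93 points (-18.1 to -2.12) with at least 500 genes and at most 5% mitochondrial UMIs per cell, and -11.3 points (-19.5 to -3.44) without likely doublets. With a Foxp3 UMI required, 35 and 61 Tregs remained, and the differences over CD3+ cells and among Tregs and CD8+ T cells were 1.37 (0.766 to 2.03) and 3.92 points (2.61 to 5.40). Leaving out Tregs with any UMI of Lyz2, S100a8, S100a9, Cd79b, Ncr1 or Alb kept 39 Ctrl and 29 KD Tregs. KD minus Ctrl was then -0.113 points of filtered cells (-0.286 to 0.0562), 0.125 of CD3+ cells (-0.355 to 0.648) and 1.10 among Tregs and CD8+ T cells (0.113 to 2.27). Among Tregs and conventional CD4+ T cells it was -15.5 (-22.9 to -8.71). This filter was applied to Tregs and not to the cells they were set against, and UMIs of S100a8 were more frequent in all 3 T cell classes in KD, so no direction is read from these values.

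**Figure D1:**
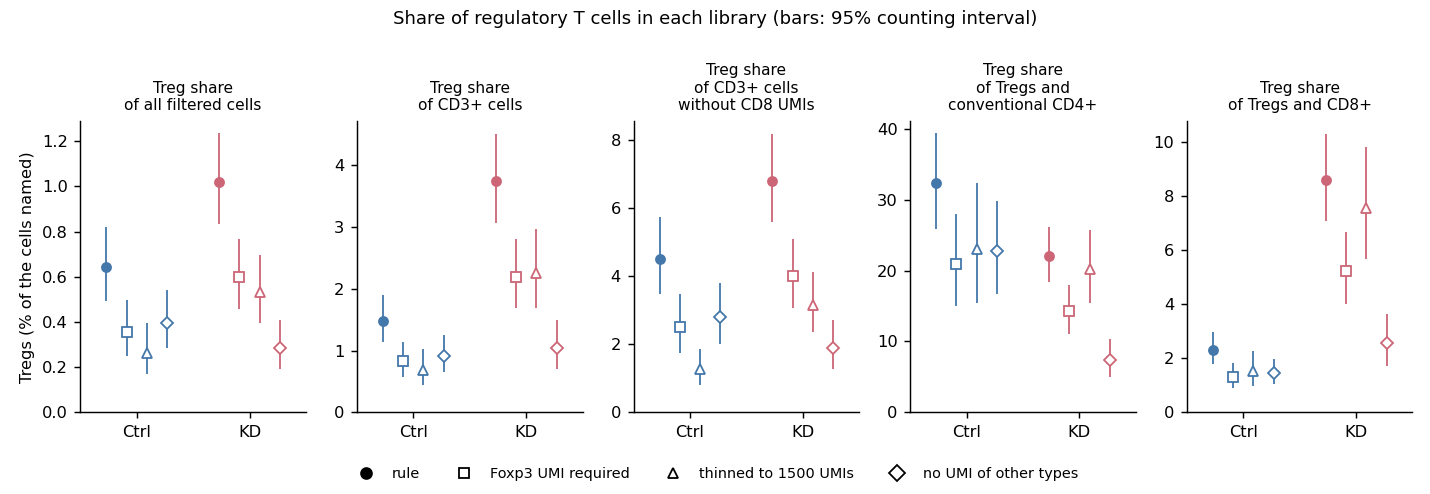
Treg shares (percent) in Ctrl and KD over 5 denominators, each under the rule, with a Foxp3 UMI required, after thinning cells to 1500 UMIs, and without Tregs that held a UMI of other cell types. Points are shares of 1 library and bars 95% counting intervals. Under the rule KD lies above Ctrl over CD3+ cells (3.74% against 1.48%). It lies below Ctrl among Tregs and conventional CD4+ T cells together (22.1% against 32.3%).

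Which genes set Tregs apart from other T cells was asked within each library. UMIs were summed per class and library and tested with edgeR on the 4 sums of each comparison, without the genes of the rule. Here the libraries are the replicates, n = 2 per class, and p-values are adjusted over all genes tested. Against conventional CD4+ T cells, 31 of 7258 genes (0.427%) were higher and 62 (0.854%) lower in Tregs. Among the effector Treg genes, 5 of 33 passed the test, each higher, and among suppressive mediators 5 of 17 were higher and 1 lower. Since Tregs were chosen partly for Ctla4, Il2ra and Ikzf2, genes whose levels follow these 3 could be favored by the rule, which was not tested.

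Receptors and mediators of effector Tregs were prominent among the higher genes. Tnfrsf9 (4-1BB), a costimulatory receptor of activated T cells, was at 923 CPM in Ctrl and 750 in KD Tregs, against 272 and 180 in conventional CD4+ T cells (log2 difference 1.90, edgeR adjusted p = 0.0153). A Tnfrsf9 UMI was found in 93.7% and 90.4% of Tregs, so this receptor was close to general among them. Areg was at 241 and 204 CPM, against 29.2 and 50.8 (2.37, edgeR adjusted p = 0.0256). Klrg1 was at 92.7 and 112 CPM, against 30.8 and 12.4 (2.47, edgeR adjusted p = 0.0355). Areg and Klrg1 did not overlap between the classes, but UMIs of each were seen in only 31.7% to 39.4% of Tregs.
Itgb8, whose αvβ8 integrin activates latent TGF-β, was at 144 and 183 CPM, against 38.9 and 43.5 (1.98, edgeR adjusted p = 0.0218). Gzmb, a protease of cytotoxic granules that tumor Tregs also make, was at 641 and 606 CPM, against 149 and 106 (2.30, edgeR adjusted p = 0.0153). Prf1 (perforin) was at 41.4 and 49.5 CPM, against 8.11 and 7.26 (2.58, edgeR adjusted p = 0.0345). For these 3 genes both Treg values lay above both conventional values, but the call for Prf1 was lost with a Foxp3 UMI required (2.43, edgeR adjusted p = 0.0728), and 14 of the 21 Ctrl Prf1 UMIs lay in Tregs without one. Prf1 was found in 8 Ctrl and 12 KD Tregs, and 1 cell held 8 of the 21 Ctrl UMIs and 1 held 16 of the 34 KD UMIs. For Gzmb, 1 cell held 84 of 325 UMIs in Ctrl and 1 held 28 of 416 in KD.
Socs2, a target of the IL-2 and STAT5 pathway, was at 51.3 and 87.3 CPM in Tregs, against 11.4 and 18.7 (2.18, edgeR adjusted p = 0.0259). Swap70, an actin-binding signaling protein, was at 134 and 131 CPM, against 29.2 and 24.9 (2.29, edgeR adjusted p = 0.0195). Rapsn, better known for clustering acetylcholine receptors at the muscle junction, was at 65.1 and 88.8 CPM, against 6.49 and 6.22 (3.63, edgeR adjusted p = 0.0153). Other genes of the same kind were Lamc1, a laminin chain (2.30), Bmyc, a Myc family member (2.24), Sv2c (2.22) and Neb (1.97).

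Several genes of helper T cells were lower in Tregs, as was 1 of 14 resting or naive T cell genes, Tcf7. Tcf7 (TCF-1), the transcription factor of naive and stem-like T cells, was at 23.7 and 21.8 CPM in Tregs, against 118 and 121 (-2.42, edgeR adjusted p = 0.0217). Cd40lg, the helper ligand for B and dendritic cells, was at 11.8 and 32.0 CPM, against 105 and 117 (-2.31, edgeR adjusted p = 0.0322). The cytokine Tnf was at 9.86 and 10.2 CPM, against 109 and 43.5 (-2.78, edgeR adjusted p = 0.0322). All 3 genes had every Treg value below every conventional value.
Of the 15 helper T cell cytokines tested, 4 were lower in Tregs and 11 did not pass. Tnfsf11 (RANKL) was at 41.4 and 49.5 CPM in Tregs, against 183 and 222, and Tnfsf8 (CD30 ligand) at 63.1 and 61.1, against 195 and 260. Cxcr6, a receptor of tissue-resident T cells in the liver, was at 73.0 and 90.3 CPM, against 289 and 292 (-1.84, edgeR adjusted p = 0.0218). Themis, which sets the strength of T cell receptor signals, was at 150 and 313 CPM, against 895 and 877 (-2.00, edgeR adjusted p = 0.0256). The TGF-β receptor gene Tgfbr2 (-1.40) and Sh2d1a (SAP), the adaptor of SLAM receptors (-1.28), were lower as well. Hspa1b and Hspa1a (-1.10 and -1.13) were lower but are uncertain as single genes, because their near-identical sequences can share reads.

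Some genes often used for Tregs did not pass this comparison. Ccr8 was at 63.1 and 80.1 CPM in Tregs, against 22.7 and 70.5 (0.57, edgeR adjusted p = 0.398), and the KD values of the classes were close. Il10 was at 80.8 and 144 CPM, against 56.8 and 46.7 (1.16, edgeR adjusted p = 0.120). Lrrc32 (GARP), which holds latent TGF-β on the Treg surface, was at 15.8 and 45.1 CPM, against 6.49 and 3.11 (2.98, edgeR adjusted p = 0.0781). These 3 genes were higher in Tregs of each library, by amounts that the test with 1 residual degree of freedom did not call.

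**Figure D2:**
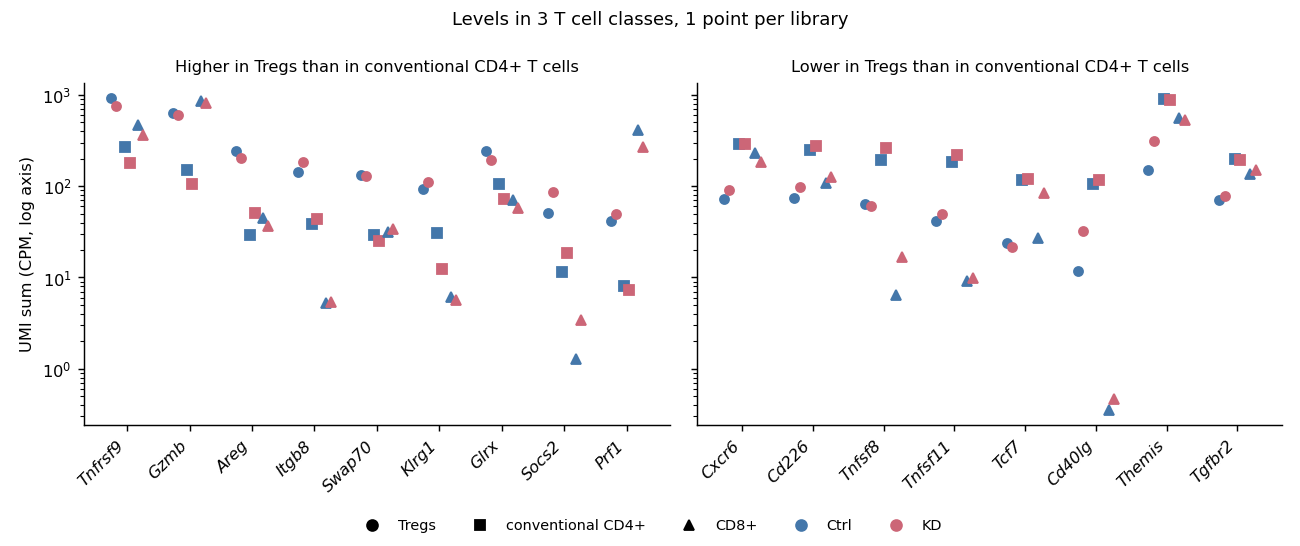
CPM (log axis) of 17 genes in Tregs, conventional CD4+ T cells and CD8+ T cells, with 1 point per library (Ctrl blue, KD red). Genes such as Tnfrsf9, Itgb8 and Swap70 lie higher in Tregs than in conventional CD4+ T cells in both libraries, and Cxcr6, Tcf7 and Cd40lg lower.

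Against CD8+ T cells, 599 of 11905 genes (5.03%) were higher and 473 (3.97%) lower in Tregs. Effector Treg genes passed as higher in 25 of 33 and as lower in 3, suppressive mediators in 10 and 4 of 17, and Treg core transcription genes in 16 and 6 of 35. Ccr8 was at 63.1 and 80.1 CPM in Tregs, against 2.12 and 1.52 in CD8+ T cells (5.20, edgeR adjusted p = 6.45e-11). Lrrc32 was at 15.8 and 45.1 CPM, against 0.265 and 0.818 (5.74, edgeR adjusted p = 1.24e-07). Il1rl1 (ST2), the IL-33 receptor of tissue Tregs, was at 15.8 and 53.9 CPM, against 1.06 and 0.701 (4.99, edgeR adjusted p = 4.70e-07). None of these receptors exceeded 2.12 CPM in CD8+ T cells.
Of the transcription factors, Maf, which drives Il10, was at 418 and 560 CPM, against 16.9 and 48.2 (4.02, edgeR adjusted p = 5.98e-15). Pparg, the regulator of fat tissue Tregs, was at 25.6 and 29.1 CPM, against 0.486 and 0.935 (5.27, edgeR adjusted p = 2.60e-07), and Rora differed by 2.62. Few Tregs carried Pparg: 13 UMIs lay in 5 Ctrl Tregs, 9 of them in 1 cell, and 20 in 8 KD Tregs, 10 of them in 1 cell. The TNF receptor family members OX40 (Tnfrsf4, 2.88) and GITR (Tnfrsf18, 2.06) and the costimulator Icos (1.91) were also higher. Genes of CD4+ T cells in general, such as Cd40lg (5.50), passed too, so this comparison mixes the CD4 lineage with the Treg state.
Of 15 cytotoxic genes, 13 were lower in Tregs. Prf1, higher in Tregs than in conventional CD4+ T cells, was at 418 and 268 CPM in CD8+ T cells, so the Treg level was lower by 2.89 on the log2 scale (edgeR adjusted p = 3.29e-11). Gzmb was at 854 and 821 CPM in CD8+ T cells, close to its Treg level (-0.47, edgeR adjusted p = 0.00669, past the threshold in 5 of 10 alternatives). Pdcd1 (PD-1) was lower in Tregs (90.7 and 88.8 CPM, against 251 and 197), as were Havcr2 (TIM-3, -1.13) and Lag3 (-1.06), while Tigit was higher (0.79).

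Tnfrsf9 was seen in most Tregs of both libraries, and other effector receptors in fewer. A UMI of Ccr8, Klrg1 or Tnfrsf9 was found in 93.7% (84.5 to 98.2) of Ctrl and 93.3% (86.6 to 97.3) of KD Tregs. After thinning each cell to 1500 UMIs, it was found in 73.0% and 68.9%. A UMI of Ccr8 or Klrg1 was found in 49.2% (36.4 to 62.1) of Ctrl and 54.8% (44.7 to 64.6) of KD Tregs. After thinning, these shares were 23.8% and 30.1%. The high shares therefore rested largely on Tnfrsf9, and they were not set against other T cells. Among single genes, Gzmb was seen in 66.7% and 59.6% of Tregs, Ccr8 in 30.2% and 34.6%, and Il10 in 22.2% and 26.9%.

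Between KD and Ctrl Tregs, most genes differed little. Of 3952 genes with at least 50 UMIs in Tregs, 88 (2.23%) were at least 2-fold higher and 70 (1.77%) at least 2-fold lower in KD, and the median log2 ratio was -0.02. The counting interval lay above 0 for 425 genes (10.8%) and below it for 534 (13.5%). The 10 highest ratios among genes with at least 100 UMIs included several genes best known from myeloid cells, whose source in these libraries was not tested. S100a8 had 0 UMIs in Ctrl and 308 in KD Tregs (at least 75.8-fold higher, against a floor of 3 UMIs), of which 123 lay in 1 cell. S100a9, its partner in neutrophils, had 6 and 468 (5.85), of which 205 lay in 1 cell, and its ratio was 2.95 without likely doublets, 3.51 with Foxp3 required and 1.72 after thinning. Slpi, a protease inhibitor, had 2 and 111 (5.36), of which 102 lay in 1 cell.
Lyz2 (1.82), Ifitm3 (1.63), Apoe (2.09) and Cxcl2 (2.57) also stood here. These ratios depended on the cells kept. In the same order, they were -0.11, -0.65, 0.36 and 0.75 without likely doublets, and with Foxp3 required 2.31, 1.91, 2.10 and 1.54. Among Tregs without UMIs of other cell types, Ifitm3 was at 3.42, Apoe at 1.79 and Cxcl2 at 0.81. Xcl1 had 45 and 197 UMIs (1.69), of which 144 lay in 1 KD cell, and its ratio was -1.29 with Foxp3 required and 4.17 among Tregs without UMIs of other cell types. Klf2, a transcription factor of resting T cells that promotes exit from tissue, had 21 UMIs in 12 Ctrl Tregs and 100 in 39 KD Tregs (1.81, 1.12 to 2.57), and its ratio was between 1.25 and 2.37 under every alternative that gave it a value. In conventional CD4+ T cells its ratio was -0.18 and in CD8+ T cells 1.29. Frmd5, a FERM domain protein, had 43 UMIs in 7 Ctrl Tregs and 205 in 28 KD Tregs (1.82, 1.34 to 2.33), and its ratio was 1.28 with Foxp3 required.

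The lowest ratios held histone, heat shock and proliferation genes. H2ac8 had 106 and 17 UMIs (-3.08) and H2ac24 207 and 48 (-2.55, but 0.39 without the Tregs that held a Mki67 or Top2a UMI), and both are uncertain as single genes, since near-identical histone genes can share reads. Top2a, the topoisomerase of dividing cells, had 192 and 104 (-1.32), and Hspa1a, an inducible heat shock gene, 492 and 258 (-1.37). Srsf1 (-1.53), Jun (-1.49), Dnajb1 (-1.44), Clic4 (-1.30) and Dctpp1 (-1.25) were also among the lowest.

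**Figure D3:**
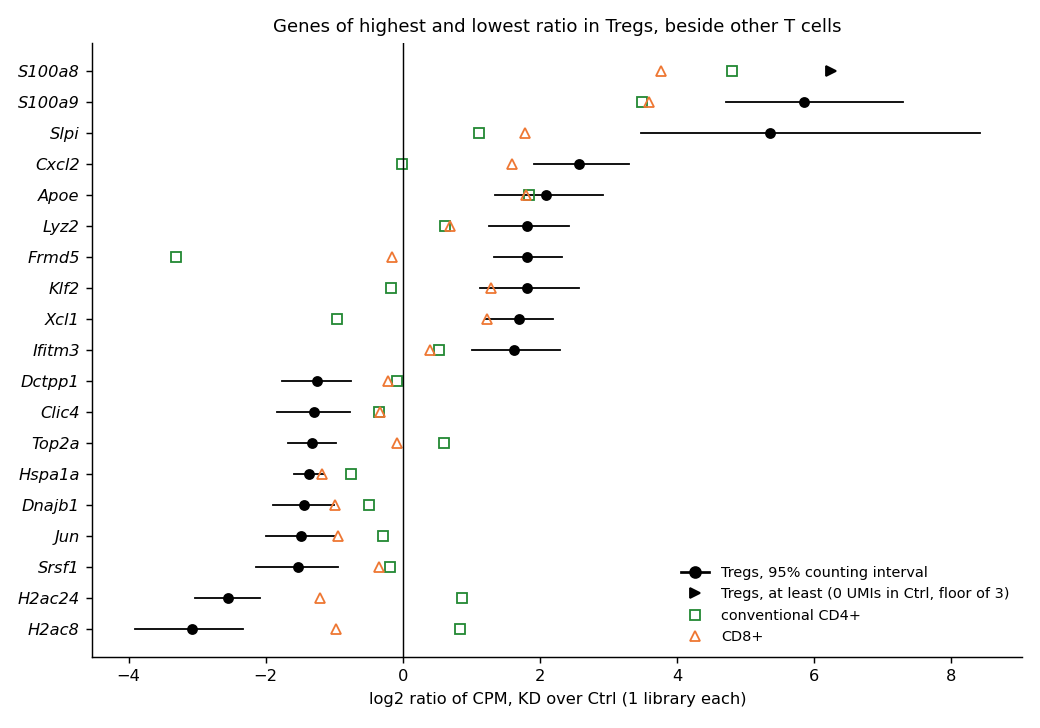
Log2 ratio of KD over Ctrl CPM for the genes of highest and lowest ratio in Tregs (at least 100 UMIs), with 95% counting intervals, beside the ratios in conventional CD4+ and CD8+ T cells. The arrow for S100a8 starts at its value against a floor of 3 UMIs (75.8-fold), S100a9 is higher in KD in all 3 classes, and Frmd5 is not.

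Like most genes, the Treg core transcription genes that were tested stayed within 2-fold. Genes of the rule, among them Foxp3, Il2ra, Ikzf2 and Ctla4, were left out. Of 29 Treg core transcription genes, 0 were past 2-fold in either direction, and the median ratio was 0.23. Over all 3952 genes, 2.23% were at least 2-fold higher and 1.77% lower. A count of 0 here or in the lists below therefore does not set a list apart. Runx1, a partner of FOXP3, had 187 and 447 UMIs (0.82, 0.57 to 1.07). Maf had 212 and 385 UMIs (0.42, 0.18 to 0.67). Of 27 effector Treg genes, 1 was higher and 1 lower, and the median was -0.03. The higher one was Samsn1, an adaptor that dampens lymphocyte signals, with 153 and 430 UMIs (1.05, 0.78 to 1.33), and the lower one was Cd81, a tetraspanin, with 87 and 53 (-1.15, -1.67 to -0.64). Tnfrsf9 was at 923 and 750 CPM (-0.30, -0.48 to -0.12), and Areg, Klrg1 and Gzmb had intervals that included 0.

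Of 14 suppressive mediators, 0 were past 2-fold, with a median of 0.24. Il10 had 41 UMIs in 14 Ctrl Tregs and 99 in 28 KD Tregs (0.83, 0.30 to 1.40), but its ratio was -0.84 among Tregs without UMIs of other cell types. Itgav, the αv chain that pairs with Itgb8, had 260 and 623 UMIs (0.82, 0.61 to 1.04), and Entpd1 (CD39), which starts the breakdown of extracellular ATP, 55 and 137 (0.88, 0.42 to 1.36). The Entpd1 ratio was 0.31 with Foxp3 required and -0.14 among Tregs without UMIs of other cell types. Lrrc32 had 8 and 31 UMIs (1.52, 0.36 to 2.85), under the 50 UMIs needed to be counted. Furin, a protease that matures TGF-β, went the other way (48 and 42 UMIs, -0.63).
Of 16 costimulatory and checkpoint genes, 0 were past 2-fold, with a median of -0.04. Icos had 189 and 330 UMIs (0.37, 0.10 to 0.63), Havcr2 65 and 47 (-0.91, -1.48 to -0.34), and Pdcd1 46 and 61 (-0.03, -0.61 to 0.55). Of 12 TGF-β pathway genes and 13 chemokine receptors and homing genes, 0 were past 2-fold (medians 0.18 and 0.24). Without the Tregs that held a Mki67 or Top2a UMI, the medians of the suppressive, TGF-β and chemokine receptor lists were -0.18, -0.21 and -0.18, and the cause of this change in sign was not tested, since these cells were also the deeper ones.

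Among signaling genes, those of the T cell receptor pathway held a few differences past 2-fold and those of the IL-2 pathway smaller ones. Of 24 genes of T cell receptor signaling and early activation, 3 were at least 2-fold higher and 1 lower, with a median of 0.26 (0.01 without the Tregs that held a Mki67 or Top2a UMI). Junb, an AP-1 subunit, had 298 and 843 UMIs (1.06, 0.87 to 1.26), and its UMI was found in 55.6% and 78.6% of Tregs thinned to 1500 UMIs. Dusp2, a phosphatase that limits MAP kinases, had 59 and 160 (1.00, 0.56 to 1.46), and Themis 76 and 215 (1.06, 0.68 to 1.46, but 0.50 with Foxp3 required and 0.22 without the Tregs that held a Mki67 or Top2a UMI). The lower one was Jun, another AP-1 subunit, with 110 and 53 (-1.49, -1.99 to -1.01).
Of 14 IL-2 and STAT5 pathway genes, 12 had a ratio above 0, against 1912 of all 3952 genes, and 0 were past 2-fold (median 0.31, and 0.16 without the Tregs that held a Mki67 or Top2a UMI). Pim1, a kinase induced by STAT5, had 190 and 407 UMIs (0.66, 0.41 to 0.92), and Il7r, the IL-7 receptor, 87 and 190 (0.69, 0.32 to 1.07). Socs1, an inhibitor of this pathway, had 33 and 25 (-0.84, -1.65 to -0.04). The median of this list was -0.07 in conventional CD4+ and 0.23 in CD8+ T cells.
Of 8 resting or naive T cell genes, 2 were higher, Klf2 and Foxp1 (37 and 102 UMIs, 1.03, 0.47 to 1.61, but 0.23 after thinning), and the list median was 0.20. In CD8+ T cells the same list had a median of 1.24. Of 9 helper cytokine genes, Ifng and Xcl1 were higher. Ifng had 14 UMIs in 10 Ctrl Tregs and 85 in 22 KD Tregs (2.16, 1.34 to 3.10), of which 60 of the 85 lay in cells without a Foxp3 UMI (1.54 with Foxp3 required). Of 8 cytotoxic genes 2 were lower, Klrd1 (62 and 34, -1.30) and Gzmc (65 and 0, at least 29.3-fold lower against a floor of 3 UMIs). Of the Gzmc UMIs, 47 lay in 1 Ctrl cell. Most of the Klrd1 and Gzmc UMIs lay in Tregs without Foxp3. With Foxp3 required, Klrd1 had 3 and 10 UMIs (1.44, so higher in KD) and Gzmc had 5 and 0. The median of the cytotoxic list was -0.13 under the rule and 1.22 with Foxp3 required. The second median left out Gzmc, which had no ratio there, and equaled the ratio of Prf1, with 7 and 20 UMIs. These 2 medians therefore cover unlike genes at low counts, and no direction is read from them.

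Of 5 SLAM family genes, the family of SLAMF3, 0 were past 2-fold in Tregs (median 0.44). Slamf1, a self-binding receptor of T cells, had 35 and 78 UMIs (0.72, 0.13 to 1.34), and Cd48, a ligand of the family, had 137 and 158 (-0.23, -0.57 to 0.11).

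**Figure D4:**
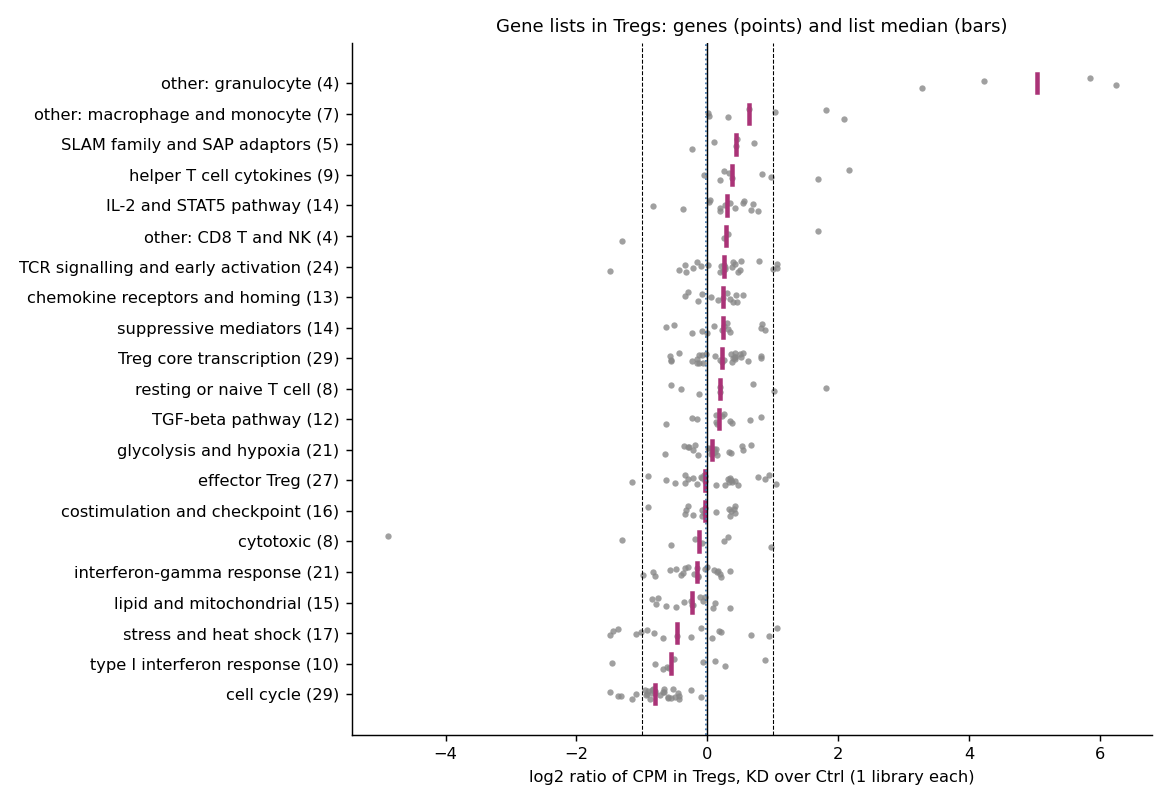
Log2 ratio of KD over Ctrl CPM in Tregs for the genes of each list with at least 4 genes tested. Points are genes, bars list medians, dashed lines 2-fold and the dotted line the median over all genes (-0.02). Granulocyte genes lie far above the rest (median 5.04), and cell cycle genes lie below 0 (median -0.80).

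Cell cycle genes were lower in KD Tregs as a group. All 29 that were tested had a ratio below 0, against 2040 of all 3952 genes, 5 were at least 2-fold lower, and the median was -0.80. Mcm2, a subunit of the replication helicase, had 64 and 31 UMIs (-1.48, -2.15 to -0.84). Mki67, the proliferation marker Ki-67, had 99 and 71 (-0.92, -1.38 to -0.46), and H2az1, a histone variant high in dividing cells, had 1933 and 1398 (-0.91, -1.01 to -0.81). The list's median was 0.46 in conventional CD4+ and -0.10 in CD8+ T cells, and it was -1.19 in Tregs with Foxp3 required.
A UMI of Mki67 or Top2a was found in 33 of 63 Ctrl Tregs (52.4%, 39.4 to 65.1) and 36 of 104 KD Tregs (34.6%, 25.6 to 44.6). After thinning, the shares were 28.6% (17.9 to 41.3) and 18.4% (11.5 to 27.3), whose intervals overlapped widely. In thinned conventional CD4+ T cells the shares were 8.53% and 14.2%, and in CD8+ T cells 30.7% and 28.0%, so the Treg values lay between these classes in both libraries, although the Treg interval included the CD8+ value in Ctrl and the conventional value in KD. Tregs with such a UMI were the deeper ones, with medians of 10344 UMIs in Ctrl and 8292.5 in KD, against 4338.5 and 4389.5 for the others. Without the Tregs that held a Mki67 or Top2a UMI, the list's median was -0.46.

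**Figure D5:**
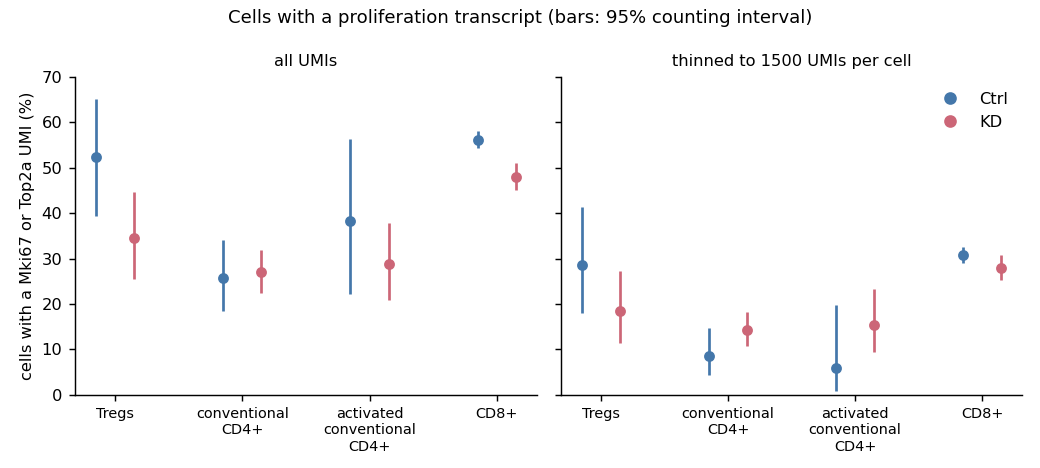
Share of cells (percent) with a UMI of Mki67 or Top2a in Ctrl and KD, with all UMIs and after thinning to 1500 UMIs per cell. Classes are Tregs, conventional CD4+, activated conventional CD4+ (a Cd44 UMI and no UMI of genes of resting T cells) and CD8+ T cells. Bars are 95% counting intervals of 1 library. The Treg share is 52.4% in Ctrl and 34.6% in KD with all UMIs, and 28.6% and 18.4% after thinning. In activated conventional CD4+ T cells it is 38.2% and 28.8% with all UMIs, and 5.88% and 15.4% after thinning.

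Of 17 stress and heat shock genes, 11 had a ratio below 0 and 6 above it, 5 were at least 2-fold lower and 1 was higher, with a median of -0.46 (conventional CD4+ -0.22, CD8+ -0.26). The heat shock genes were on the lower side, and Junb, Zfp36 (0.94, 0.48 to 1.43), Dusp1 (0.67, 0.36 to 0.98) and Nfkbia (0.21, 0.03 to 0.40), early response genes, on the higher side. Hsp90aa1, an inducible chaperone, had 583 and 391 UMIs (-1.01, -1.20 to -0.83), and Hspe1, a mitochondrial co-chaperone, 401 and 254 (-1.10, -1.33 to -0.87). Of 10 genes of the type I interferon response, 7 had a ratio below 0 and 1 was past 2-fold, with a median of -0.55 (conventional CD4+ -0.46, CD8+ -0.10). That gene was Isg15, a ubiquitin-like interferon target, with 63 and 31 UMIs (-1.46, -2.13 to -0.82), of which 25 lay in 1 Ctrl cell (-0.93 without the cell of most UMIs in each library). Bst2 (tetherin), which holds back budding viruses, had 166 and 141 (-0.67, -1.01 to -0.34). Of 21 interferon-γ response genes, 21 glycolysis and hypoxia genes and 15 lipid and mitochondrial genes, 0 were past 2-fold, with medians of -0.16, 0.07 and -0.23. Fabp5, a fatty acid carrier of tissue T cells, had 168 and 135 UMIs (-0.75, -1.09 to -0.42).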

How the data were processed

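CD45+ cells of 2 pooled libraries were profiled with 3' chemistry. The authors deposited raw counts of UMIs for each gene and barcode. The submitters' processing notes name Cell Ranger 7.1.0, GRCm39, Seurat 5.1.0 and R 4.4.1, and the counts were not normalized. The libraries held 10416 Ctrl and 10943 KD barcodes with 67207234 and 64444715 UMIs, and shared 27 barcodes, 0 of them Tregs.

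The study's limits were applied to cells: a minimum of 200 genes, and maxima of 10% mitochondrial UMIs, 30000 UMIs and 6000 genes. They were also its treatment of doublets. Likely doublets were left out as an alternative (the highest Scrublet scores in scanpy 1.11.5, 0.8% per 1000 cells, 771 Ctrl and 830 KD cells). The members and gene lists were chosen with earlier results of these data known. Gene names are those of the files, and the hairpin was matched to GENCODE transcripts on GRCm38, the build of the reference used here, so no other coordinates are given.

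UMI counts were summed per class and library. Ratios of CPM carry exact conditional binomial 95% intervals and shares Clopper-Pearson intervals, with limits of differences combined from them. PCR copies are removed by UMIs, and these intervals cover counting error only. A gene was called between KD and Ctrl at 2-fold with at least 50 UMIs. Tregs were compared with conventional CD4+ and CD8+ T cells (a CD3 and a CD8 UMI, no Cd4) by edgeR 4.0.16 quasi-likelihood tests (TMM, library as a term, genes of the rule left out, Benjamini-Hochberg adjusted p under 0.05), with DESeq2 1.42.0 as an alternative. Libraries are pools, and the difference between them is a term of the model. These p-values therefore rest on how far the class difference varied between the 2 pools. Since 1 pool is Ctrl and 1 is KD, that spread also holds any effect of the group on the class difference. Besides the listed genes, the text names the 10 highest and 10 lowest KD over Ctrl ratios with at least 100 UMIs and the 15 genes of largest fold in each direction per cell type comparison, without mitochondrial, ribosomal, receptor segment and sex genes. Some genes that these rules name are not reported here. The shares among Tregs with CD4+ or CD8+ T cells and over CD3+ cells without CD8 UMIs, the split by Foxp3 UMI and the ratios without the cell of most UMIs were added after seeing the data. On simulated counts, intervals held the true ratio in 95.9% of 3952 genes. That share concerns counting error alone and cannot show how the intervals hold where UMIs gather in single cells. Of the 197 Xcl1 UMIs of KD Tregs, for instance, 144 lay in 1 cell.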

Additional observations from a re-analysis of the deposited data

Results flagged for a closer look

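Frmd5, H1f5 and H4c4 moved in opposite directions between KD and Ctrl in Tregs and in conventional CD4+ T cells, with counting intervals that did not meet. With 1 library per group the difference between the classes was not tested. Frmd5 had a log2 ratio of 1.82 (1.34 to 2.33) in Tregs and -3.31 (-4.92 to -1.93) in conventional CD4+ T cells. The values rest on few cells or UMIs. In Tregs its 43 Ctrl UMIs lay in 7 cells and its 205 KD UMIs in 28. Conventional CD4+ T cells held 19 Frmd5 UMIs in Ctrl and 6 in KD. The intervals do not cover the spread between cells. H1f5, a linker histone, was at -1.03 (-1.39 to -0.67) in Tregs and 2.17 (1.48 to 2.95) in conventional CD4+ T cells. H4c4, a core histone gene, was at -1.20 (-1.74 to -0.68) in Tregs and 1.10 (0.41 to 1.86) in conventional CD4+ T cells. It is uncertain as a single gene, since near-identical histone genes can share reads.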

How the results depend on the processing

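No paired analysis was possible because each group had 1 library. With Foxp3 required, KD minus Ctrl was 1.37 points over CD3+ cells and 3.92 among Tregs and CD8+ T cells. Without Tregs holding UMIs of other cell types, it was -0.113 over filtered cells, 0.125 over CD3+ cells and 1.10 among Tregs and CD8+ T cells. Over CD3+ cells without CD8 UMIs it was then -0.898 (-2.08 to 0.246), against 2.29 under the rule, 1.48 with Foxp3 required and 1.90 after thinning. The number of genes tested changed with the setting, so a smaller count was not always a smaller share. Genes at least 2-fold higher in KD Tregs (88 of 3952) became 47 of 1623 without UMIs of other types and 16 of 287 after thinning. They were 56 of 1824 without cycling cells, 305 of 6793 at a minimum of 20 UMIs and 13 of 970 at 200 UMIs. Those at least 2-fold lower (70 of 3952) became 111 of 2424 with Foxp3 required and 10 of 287 after thinning. They were 46 of 1824 without cycling cells, 278 of 6793 at 20 UMIs and 9 of 970 at 200 UMIs. Against conventional CD4+ T cells, genes higher (31 of 7258) became 73 of 6737 without doublets, 103 of 6106 without other types and 52 of 2007 after thinning. They were 230 of 19984 with no filter on low counts and 59 of 7258 with no library block. Against activated cells alone (a Cd44 UMI and no UMI of genes of resting T cells) they were 142 of 6786. Genes lower (62) became 147, 142, 404, 102 and 200 of the genes tested under these settings. They were 52 of 2007 after thinning, and 100 of 7258 with DESeq2 size factors. Against CD8+ T cells, 599 genes were higher and 473 lower of 11905. These became 320 and 311 of 11818 without other types, and 168 and 152 of 6565 after thinning. With DESeq2 they were 314 and 157 of 11212, and with no library block 227 and 113 of 11905. The log2 ratio of Lyz2 became -0.11 and that of Ifitm3 -0.65 without doublets, that of Xcl1 -1.29 with Foxp3 required and -1.61 without cycling cells, and that of H2ac24 0.39 without cycling cells. The cause of these changes was not tested, except that fewer cells, UMIs or genes enter under thinning, stricter limits and left-out cells. The other 47 comparisons of these summary values kept their direction and were within 1.5 times or within counting error.

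Many smaller changes were missed on simulated counts. Of simulated 2-fold changes, 51.5% came out past 2-fold between KD and Ctrl, where 2-fold is itself the limit for a call. Against conventional CD4+ T cells 0% were called, and against CD8+ T cells 43.2%. At 4-fold these were 100%, 96.2% and 73.5%. The number of Tregs was not varied, so its part in these values was not tested.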
